A study of Mus musculus with 6 samples.

Results

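The late-numbered mouse miRNAs are those whose registry number is 1100 or higher, the entries added once sequencing of small RNA had become routine. On the rodent panel used here, 85 of 750 miRNA assays carried such a number, with miR-1193 and miR-1197 left out, and all 85 had the pool letter B in their assay name. Every assay was kept, including both arms of a hairpin where the panel had both. Choice by number used no measured value, though the members were chosen with earlier results of these data known. The samples were whole prefrontal cortex from 6 male mice aged 5 months that received no drug, 3 of the strain labelled BTBR T+ Itpr3tf/J, an inbred strain studied for its low sociability and repetitive grooming, and 3 C57BL/6J as controls. The labels also list C57BL/6J as the strain background of the BTBR mice. Each mouse gave 1 RNA sample, and each miRNA assay was read once per sample.

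A miRNA is a short RNA that guides an Argonaute protein to messenger RNAs, chiefly through its seed, bases 2 to 8 of the mature strand. In the usual route, Drosha and its partner DGCR8 cut a hairpin out of a longer transcript and Dicer then releases the mature strands. Mirtrons skip the Drosha step because splicing of a short intron frees the hairpin. Registry entries found late by sequencing are on the whole less abundant and less conserved than early ones, and some of them are pieces of transfer RNA, ribosomal RNA or small nucleolar RNA. Several such entries were later withdrawn from miRBase. A quantitative PCR assay does not tell a piece of a longer RNA from a true miRNA, so the sorting below rests on general knowledge of the names. It was made with earlier results of these data known.

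A list of such fragment names held 11 of the 85 assays. miR-1274a matches the end of a lysine transfer RNA, and miR-1937b and miR-1937c match transfer RNA sequence. miR-1839, with assays for both arms, comes from an H/ACA-type small Cajal body RNA that Dicer can cut. miR-1959, miR-2134, miR-2135, miR-2138, miR-2146 and miR-2182 are entries regarded as pieces of abundant RNA. A separate list held the mirtrons on the panel, miR-1224, miR-1981 and miR-1982 (assays miR-1982.1 and miR-1982.2).

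Sequences from RefSeq (GRCm38.p6) were matched by hairpin name and not by the sequence or arm of an assay. A match was found for 60 of the 85 assays, and for 6 of the 15 that gave a reading in all 6 mice. For miR-1839-3p the match gave a hairpin but no mature 3p strand. Mature sequences are shown for the well-read assays that had one and for miR-1941-3p, whose strain value turned on how late readings were handled. Capitals mark the seed. The assay names miR-1198, miR-1306 and miR-1188 give no arm, so both arms are shown for these hairpins.
mmu-miR-1198-5p: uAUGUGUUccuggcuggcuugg
mmu-miR-1198-3p: aAGCUAGCcucuaacucauggc
mmu-miR-1839-5p: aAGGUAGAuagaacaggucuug
mmu-miR-1306-5p: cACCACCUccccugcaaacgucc
mmu-miR-1306-3p: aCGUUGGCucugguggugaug
mmu-miR-1191a: cAGUCUUAcuauguagcccua
mmu-miR-1188-5p: uGGUGUGAgguugggccagga
mmu-miR-1188-3p: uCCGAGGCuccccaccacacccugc
mmu-miR-1941-3p: cAUCUUAGcaguaucucccau
No RefSeq entry was matched for miR-1274a, miR-1937b, miR-1937c, miR-1944, miR-2134, miR-2135, miR-2138, miR-2146 and miR-2182.

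The Mir1839 hairpin is printed whole because both of its arms were well read while the table lists a mature strand for the 5p arm alone, marked here in capitals.
Mir1839 hairpin: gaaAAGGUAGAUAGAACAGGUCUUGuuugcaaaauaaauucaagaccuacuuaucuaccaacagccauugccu
Among the 68 mature sequences matched to the late-numbered assays, 0 seeds were shared. The assays with no matched sequence were not part of that comparison.

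By position, 38 of the 50 late-numbered hairpins with RefSeq coordinates (76%) overlapped the span of a protein-coding gene, against 621 of 955 other mouse hairpins (65%). The strand of the gene was not compared with that of the hairpin. Mir1198 lies at chrX:7807101-7807221 on the plus strand within Gripap1, which encodes a neuronal trafficking protein that binds a glutamate receptor-interacting protein. Mir1306 lies at chr16:18284239-18284317 on the minus strand within Dgcr8, the gene for the DGCR8 protein named above. Mir1191 lies at chr7:27205536-27205655 within BC024978. Mir1839 lies at chr7:81529916-81529988 on the plus strand within the long noncoding RNA gene 2900076A07Rik. Mir1188 lies at chr12:109611822-109611941 within Rian, a maternally expressed noncoding RNA of the imprinted Dlk1-Dio3 region.

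Each assay gave a cycle threshold, which is the point in the PCR where fluorescence crosses a set level. A lower threshold means more RNA, 1 cycle stands for about 2-fold, and a value of 40 means undetermined. An assay was counted as detected in a mouse at a raw threshold of 10 or more and under 40. Thresholds of different assays also carry their own primer efficiency, so an order of assays by threshold is not an exact order of RNA amounts. Over the whole panel, 289 to 404 of 750 assays were detected per mouse, more in each BTBR mouse (347 to 404) than in each C57BL/6J mouse (289 to 305). The endogenous control RNAs, read on 16 spots each, were detected on 10 to 15 spots in C57BL/6J and 15 or 16 in BTBR, and spots of 1 control in 1 mouse spread over 6.02 to 24.7 cycles. The plant control ath-miR159a was undetected on every spot. Of the neuronal markers, 3 of 5 assays were detected in all 6 mice and 0 in none, and of the oligodendrocyte markers 4 of 6. Choroid plexus markers (3 of 9 in all 6 mice and 4 in none) and muscle markers (4 of 8 and 3 in none) were read in part. So were red blood cell markers (1 of 3 and 1 in none), immune markers (1 of 6 and 1 in none) and endothelial markers (1 of 2 and 0 in none). The 1 liver assay was read in some mice only. Over the panel, 237 of 750 assays were detected in all 6 mice. In whole tissue, fewer cells of a type and less RNA per cell cannot be told apart.

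Most late-numbered miRNAs were undetected or were detected in some mice and not in others. The number detected was 25, 25 and 22 in the C57BL/6J mice and 25, 32 and 24 in the BTBR mice. The strains overlapped, and BTBR replicate 2 stood highest. The means were 24 ± 1.73 and 27 ± 4.36 (SD, n = 3 each), a difference of 3 assays (exact two-sided permutation test over mice, p = 0.6, where 0.1 is the smallest p possible). Of the 85 assays, 15 (17.6%) were detected in all 6 mice, 41 (48.2%) in none and 29 in some. Among the 288 other assays of pool B, 70 (24.3%) were detected in all 6 mice and 139 (48.3%) in none, and among the 377 assays of pool A the numbers were 152 (40.3%) and 108 (28.6%).

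Within each mouse, a smaller share of the late-numbered assays was detected than of the rest of the panel. The late-numbered share was 29.4%, 29.4% and 25.9% in C57BL/6J and 29.4%, 37.6% and 28.2% in BTBR. For the other assays of pool B it was 36.1%, 33.3% and 31.9%, then 30.9%, 44.8% and 38.5%. The late-numbered share was lower in 6 of 6 mice, with a mean difference of -5.94 ± 3 percentage points (SD, n = 6 mice, range -10.3 to -1.49). An exact two-sided sign-flip test over mice gave p = 0.031, the smallest p that 6 mice allow. Against pool A the mean difference was -24.4 ± 6.93 points (SD, n = 6), again lower in 6 of 6 mice (exact sign-flip test, p = 0.031). The same assays were read in every mouse, so both tests measure spread over mice and not over assays. The plot of detected assays by set shows the higher BTBR points in pool A and the overlap of both strains among the late-numbered assays.

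**Figure D1:**
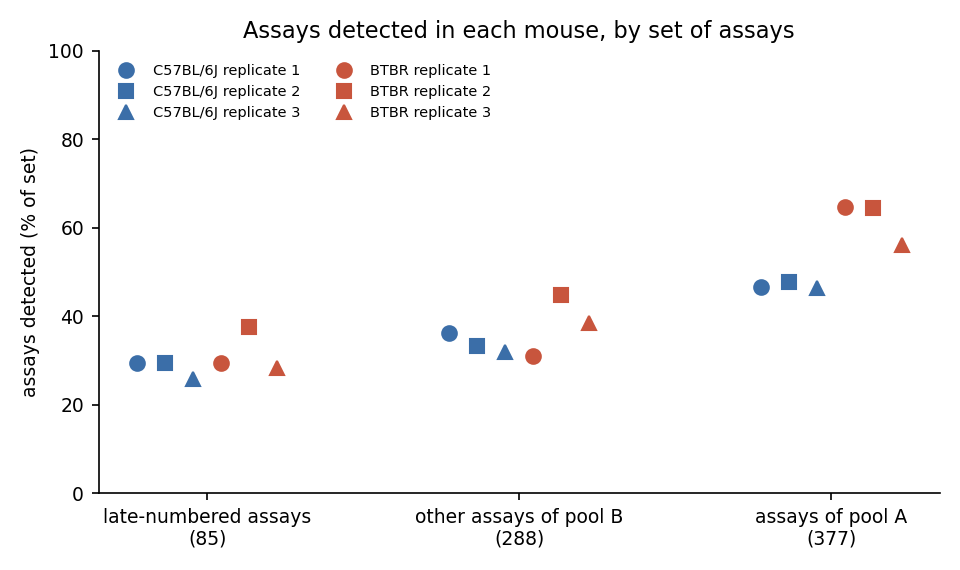
Percentage of assays detected (raw threshold of 10 or more and under 40) in each mouse, for the 85 late-numbered assays, the 288 other assays of pool B and the 377 assays of pool A; each point is 1 mouse. The late-numbered points lie between 25.9% and 37.6% with the strains overlapping, and in every mouse below the other assays of pool B.

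The fragment list was drawn up with earlier results of these data known, so its detection is a description only. Of its 11 assays, 10 (90.9%) were detected in all 6 mice, and miR-1959 in none. Of the other 74 late-numbered assays, 5 (6.76%) were detected in all 6 mice and 40 in none. The 5 were miR-1198, miR-1306, miR-1944, miR-1191 and miR-1188. The list was not defined by RefSeq. miR-1839 is on it and has a RefSeq entry, and 10 assays off it, miR-1944 among them, were matched in neither RefSeq table. Of those 10, 1 was read in all 6 mice, miR-1944, against 8 of the 9 unmatched assays on the list.

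Among the 15 assays read in all 6 mice, the transfer RNA pieces miR-1937c and miR-1937b had the lowest mean thresholds. miR-1937c read 16.7, 14.51 and 14.89 cycles in C57BL/6J replicates 1 to 3, and 14.62, 14 and 15.38 in BTBR. miR-1937b read 15.81, 15.67 and 14.77, then 15.26, 14.16 and 15.43. Both strains overlapped for both assays, with BTBR replicate 2 earliest in each. They sat beside miR-720, a transfer RNA piece outside the number range, which read 16.07, 15.84 and 15.39 in C57BL/6J and 16.14, 15.02 and 16.68 in BTBR. The Y RNA control Y1 had median spots of 16.63, 17.4 and 16.94, then 16.23, 15.66 and 15.6.

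miR-1274a, the lysine transfer RNA piece, was far later and far less steady. It read 26.99, 25.22 and 29.91 cycles in C57BL/6J and 21.43, 20.47 and 27.54 in BTBR. BTBR replicates 1 and 2 were earlier than every C57BL/6J mouse, while BTBR replicate 3 lay within the C57BL/6J range. Its readings spanned 9.43 cycles over the 6 mice, against 2.7 for miR-1937c and 1.65 for miR-1937b.

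The entries from miR-2134 to miR-2182 ranged from early and steady to late and scattered. miR-2146 was the steadiest of them, at 18.85, 18.74 and 18.61 cycles in C57BL/6J and 17.95, 17.68 and 18.62 in BTBR. miR-2134 read 16.8, 16.56 and 26.42, then 15.25, 14.79 and 21.84, so that the third mouse of each strain was late and the readings spanned 11.6 cycles. These were separate animals, and the labels do not say that equal numbers share a day or an array. miR-2135 read 24.84, 24.84 and 25.78, then 23.46, 23.19 and 26.09. miR-2182 read 25.82, 25.66 and 25.77 in C57BL/6J, and 24.07, 24.07 and 25.88 in BTBR. miR-2138 read 30.51, 28.96 and 27.08, then 25.8, 24.57 and 26.89, and every BTBR reading was earlier than every C57BL/6J reading.

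For miR-1274a, miR-2134, miR-2135, miR-2146 and miR-2182, BTBR replicates 1 and 2 were earlier than all 3 C57BL/6J mice and BTBR replicate 3 was not. This order, singled out after the values were seen and not tested, held for 5 of the 15 late-numbered assays read in all 6 mice (33.3%). It held for 7 of 70 other assays of pool B (10%) and 27 of all 237 (11.4%). The mean raw threshold over assays detected in every sample was 21.98, 21.46 and 22.12 cycles in BTBR replicates 1 to 3, and 22.62, 22.23 and 21.89 in C57BL/6J. The sources used here do not give which samples shared an array, so the part of arrays in the pattern was not tested.

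The arms of miR-1839 spanned 1.76 cycles (5p) and 1.67 cycles (3p) over the 6 mice. miR-1839-5p read 19.46, 18.92 and 18.45 cycles in C57BL/6J and 20.21, 19.84 and 19.83 in BTBR. miR-1839-3p read 19.79, 19.76 and 19.81, then 21.43, 20.03 and 20.44. For each arm, every BTBR mouse was later than every C57BL/6J mouse in the raw readings. The 5p arm was ahead of the 3p arm in 6 of 6 mice.

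Outside the fragment list, miR-1198 was the earliest assay read in all 6 mice. It read 18.97, 19.11 and 18.7 cycles in C57BL/6J and 19.59, 18.99 and 19.28 in BTBR, with the strains overlapping. Its readings spanned 0.892 cycles over the 6 mice, the narrowest span of the 15 assays. miR-1306, whose hairpin lies within the span of Dgcr8, read 25.19, 25.81 and 25.25, then 24.75, 25.18 and 23.62. miR-1944 read 27.18, 26.46 and 25.7, then 26.47, 25.46 and 26.15. The strains overlapped for miR-1944, and for miR-1306 all BTBR readings were the earlier ones by a small margin.

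miR-1191 and miR-1188 were read late in every mouse. miR-1191 read 28.71, 27.3 and 27.77 cycles in C57BL/6J and 28.95, 27.89 and 27.2 in BTBR, with full overlap. miR-1188, from the Dlk1-Dio3 region, read 29.37, 27.94 and 29.39, then 27.9, 30.36 and 34.19. BTBR gave both its earliest and its latest reading. The plot of raw thresholds shows the steady assays as tight groups and miR-2134, miR-1274a, miR-1188 and miR-2138 as wide ones.

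**Figure D2:**
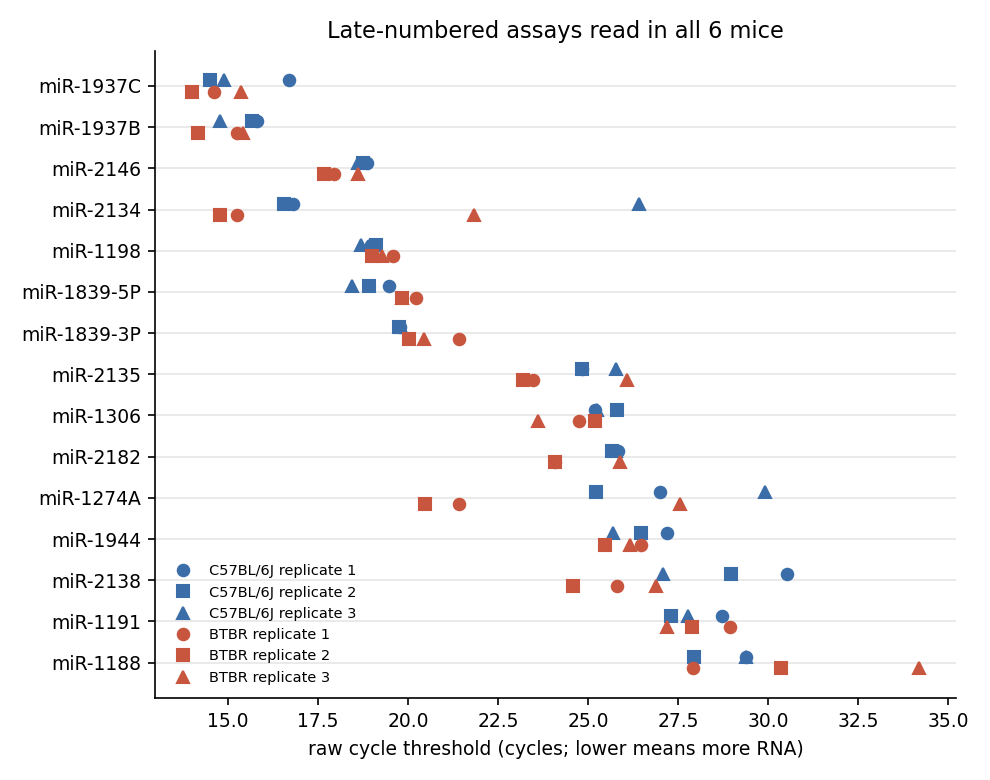
Raw cycle threshold of the 15 late-numbered assays detected in all 6 mice, ordered by mean threshold, with 1 point per mouse, C57BL/6J in blue and BTBR in red; a lower threshold means more RNA. Ranges run from 0.892 cycles for miR-1198 to 11.6 cycles for miR-2134, whose late points are replicate 3 of each strain.

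The 29 assays detected in only some mice gave 63 readings, 27 in C57BL/6J and 36 in BTBR, between 10.09 and 33.51 cycles with a median of 26.73. A threshold of 25 or later was found in 35 of the 63, and 17 were under 20 cycles, early readings in assays not counted as detected in another mouse. In all, 12 of these assays were detected in BTBR alone (6 in 1 mouse and 6 in 2), and 7 in C57BL/6J alone (4 in 1 mouse and 3 in 2). Taken over all 85 assays, these are 14.1% and 8.24%, beside 11.5% and 3.82% of the other assays of pool B and 18.3% and 2.65% of pool A. The late-numbered C57BL/6J share includes miR-1904 and miR-1894-3p, which did give readings in BTBR, all of them under the limit of 10 cycles. Detection in all 3 mice of 1 strain and in 0 of the other was found for 0 of the 85, 4 of the 288 other assays of pool B (1.39%) and 27 of the 377 of pool A (7.16%). Detection in exactly BTBR replicates 1 and 2 was found for 4 late-numbered assays (4.71%), miR-1896, miR-1897-5p, miR-1954 and miR-1966. It was found for 2 of the other assays of pool B (0.694%) and 28 of pool A (7.43%).

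Those 4 were read at moderate to late cycles. miR-1897-5p, from a hairpin in Sox2ot, a noncoding RNA gene that overlaps Sox2, read 23.53 and 21.76 cycles in BTBR replicates 1 and 2. miR-1896 read 23.41 and 23.96, miR-1966 27.05 and 27.39, and miR-1954 29.32 and 28.7. All 4 were undetermined in the other 4 mice.

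The mirtron assays were read irregularly, and 0 of 4 were detected in all 6 mice. miR-1224 was undetected throughout. miR-1981 was read in BTBR replicate 2 at 24.03 cycles and replicate 3 at 23.72 and in no other mouse. The assay miR-1982.2 read 17.91 and 19.58 in C57BL/6J replicates 1 and 3, and 16.13 and 22.93 in BTBR replicates 1 and 2. Its BTBR replicate 3 value of 9.033 fell under the limit of 10, and C57BL/6J replicate 2 was undetermined. The assay miR-1982.1 was read once, at 15.45 cycles in BTBR replicate 2. The hairpin lies within Oaz1, which encodes antizyme, an inhibitor of polyamine synthesis.

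Other hairpins with assays for both arms were seldom read on both. miR-1941-3p read 28.35, 28.89 and 30.85 cycles in C57BL/6J, and 29.25 and 28.83 in BTBR replicates 1 and 3, while miR-1941-5p was read once, at 27.94 in BTBR replicate 3. miR-1897-3p, miR-1894-5p and both arms of miR-1933 were undetected. miR-1960, from a hairpin within Hadhb, which encodes a subunit of the mitochondrial trifunctional protein of fatty acid oxidation, was read in 4 mice over a wide range. It read 26.22 and 21.66 in C57BL/6J replicates 1 and 2 and 15.75 and 16.8 in BTBR replicates 2 and 3, and was undetermined in the other mouse of each strain. miR-1969 was detected in 5 mice, at 28.87 and 26.73 in C57BL/6J replicates 1 and 3 and at 28.68, 28.61 and 28.66 in BTBR.

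A few assays crossed the threshold unusually early. The panel had 21 readings under 10 cycles in all, and 10 of them came from 4 late-numbered assays. miR-1904 accounted for 5 of them, at 9.482 and 6.548 in C57BL/6J replicates 1 and 3 and 7.458, 6.798 and 8.384 in BTBR, with 10.09 in C57BL/6J replicate 2. miR-1894-3p had 3, at 6.913 in C57BL/6J replicate 3 and 7.929 and 8.399 in BTBR replicates 2 and 3. It read 11.23 and 10.42 in C57BL/6J replicates 1 and 2 and was undetermined in BTBR replicate 1. Of the rest, the assay miR-1982.2 had 1 and miR-2183 had 1 (8.503). They were counted as undetermined here, as in the steps that rebuilt the authors' normalized values.

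The strain comparison, BTBR against C57BL/6J, was made with limma on the authors' quantile-normalized thresholds, sign turned so that a positive log2 change means more RNA in BTBR, with 40 as missing and at least 2 values needed in each strain. Of the 85 assays, 21 were in the normalized table and 15 could be tested. These 15 passed through being read, and do not stand for the other 70. At a Benjamini-Hochberg adjusted p under 0.05 over all 231 assays tested, 4 of the 15 were lower in BTBR, 1 was higher and 10 did not pass. Over all assays, 82 of 231 (35.5%) were lower and 3 (1.3%) were higher, 36.8% in either direction. The median log2 change was -0.99 for the 15 and -1.13 for all 231, so the shift of the late-numbered assays was near that of the panel.

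None of these 5 calls held on a second scale. With raw thresholds of every detected reading centred on each sample's mean over assays read in all samples, called the global mean here, the median of all 270 assays tested was -0.40 and 0 of 270 (0%) passed in limma, with 71 at an unadjusted p under 0.05. Of 19 late-numbered assays tested on that scale 0 passed, 4 had an unadjusted p under 0.05, and the median log2 change was 0.13. Negative changes made up 10 of 15 late-numbered assays on the authors' values and 7 of 19 on the global mean. Over all assays they made up 190 of 231 and 165 of 270.

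Both arms of miR-1839 fell together in BTBR. On the authors' values miR-1839-5p stood at 19.13, 18.28 and 17.89 cycles in C57BL/6J and 20.14, 21.06 and 20.54 in BTBR, a log2 change of -2.15 (SE 0.45, limma adjusted p = 0.0298). miR-1839-3p stood at 19.58, 19.2 and 19.34, then 21.86, 21.32 and 21.03, a log2 change of -2.03 (SE 0.33, limma adjusted p = 0.0265). The strains did not overlap for either arm, and both changes lay below the panel median, by -1.02 and -0.90. On the global mean scale the log2 changes were -1.41 (SE 0.33, limma adjusted p = 0.132) and -1.24 (SE 0.43, limma adjusted p = 0.149). The direction held on every scale tried, and the call did not hold on the global mean. Without BTBR replicate 3, the global mean fit called 57 of 258 assays (22.1%), among them 1 of 17 late-numbered ones, miR-1839-5p at -1.61 (SE 0.28, limma adjusted p = 0.0329).

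miR-1198 and miR-1944 also fell on the authors' values. miR-1198 stood at 18.74, 18.51 and 18.28 cycles in C57BL/6J and 19.58, 19.95 and 19.67 in BTBR, with no overlap and a log2 change of -1.22 (SE 0.28, limma adjusted p = 0.0301). That is -0.10 from the panel median, so miR-1198 moved about as the median assay did. On the global mean its log2 change was -0.75 (SE 0.33, limma adjusted p = 0.197). miR-1944 stood at 26.24, 25.62 and 24.7, then 27.84, 27.69 and 27.14, a log2 change of -2.04 (SE 0.48, limma adjusted p = 0.0301). On the global mean that difference was 0.03 (SE 0.36, limma adjusted p = 0.953), and the raw readings of the strains overlapped.

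miR-1274a was the single late-numbered assay past the threshold on the side of more RNA in BTBR, and it rested on 2 BTBR values. The authors' values were 25.82, 24.22 and 27.42 cycles in C57BL/6J and 21.89 and 21.88 in BTBR replicates 1 and 2, a log2 change of 3.94 (SE 0.98, limma adjusted p = 0.0362). BTBR replicate 3 stands at 40 in the normalized table, although its raw reading was 27.54. With its rebuilt quantile value put back, from quantiles in which 40 enters as a value, the log2 change was 1.10 (limma adjusted p = 0.754). That value is not the raw reading. On the global mean, which keeps the raw reading, the change was 3.83 (SE 2.11, limma adjusted p = 0.283). It was 6.20 (SE 1.51, limma adjusted p = 0.0773) on the global mean of the same cells as the authors' values, and 5.89 (SE 1.55, limma adjusted p = 0.0545) on the global mean without BTBR replicate 3. With 40 kept as a value, the direction turned to -2.10.

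The other fragment entries did not pass. miR-1937c changed by 0.74 (SE 0.73) and miR-1937b by 0.28 (SE 0.55) on the authors' values, and by 0.31 and 0.07 on the global mean. The log2 value of miR-720 was -0.49 (SE 0.44, limma adjusted p = 0.404). miR-2134 had 2.14 (SE 3.14), its error larger than its value. miR-2146, miR-2138, miR-2182 and miR-2135 had -0.12, -0.27, -0.99 and -1.04 on the authors' values and 0.26, 2.70, 0.68 and 0.51 on the global mean, the opposite sign. For miR-2138 the global mean value had SE 0.80 and limma adjusted p = 0.135. The 10 tested fragment entries had a median of -0.20 with the authors' values and 0.41 with the global mean. Neither median was tested.

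Among the rest, miR-1306 had a log2 value of -1.13 (SE 0.85) on the authors' values and 0.50 (SE 0.65) on the global mean. miR-1960, with 2 values in each strain, had 6.28 (SE 1.66, limma adjusted p = 0.0543) and 7.03 (SE 1.54, limma adjusted p = 0.135). The assay miR-1982.2, also 2 against 2, had -1.66 (SE 3.05). The plot of strain differences sets both scales side by side.

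**Figure D3:**
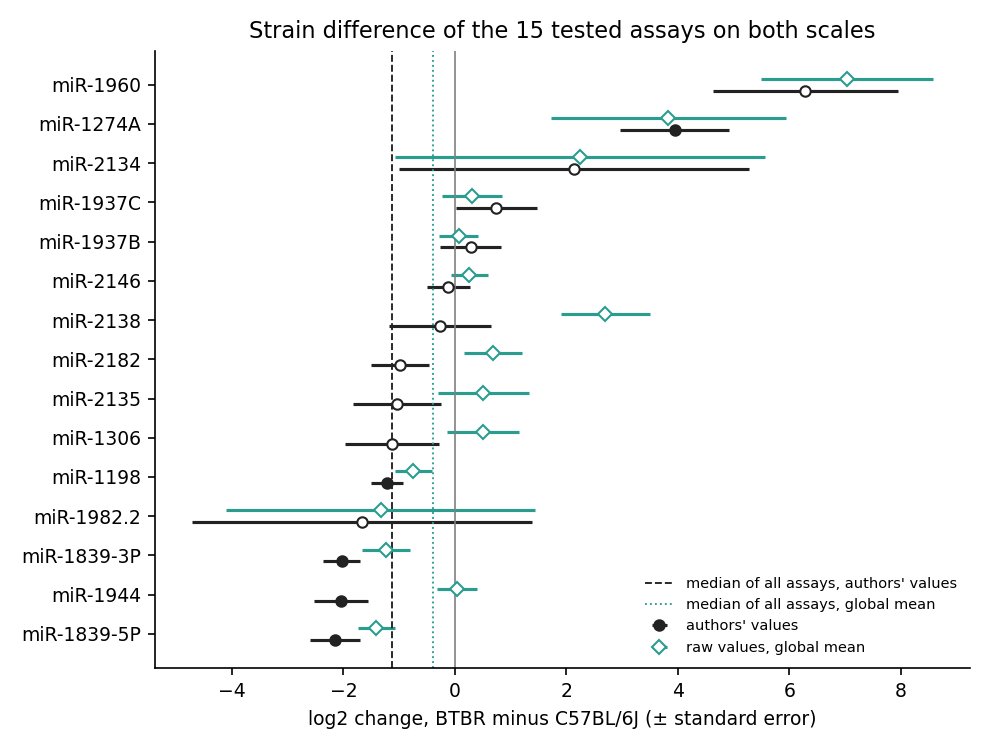
Log2 change, BTBR minus C57BL/6J, with its standard error, for the 15 late-numbered assays tested on the authors' values (circles, filled at adjusted p under 0.05) and on raw values centred on the global mean (diamonds, none filled); vertical lines mark the medians of all assays, -1.13 and -0.40. miR-1274a lies to the right on both scales, both arms of miR-1839 to the left on both, and miR-1944 lies at -2.04 on one and 0.03 on the other.

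The quantile step and the cut made after it decided which late readings were kept. The largest threshold kept in the normalized table was 29.19 cycles, and 9 late-numbered entries stand at 40 there although the raw table has a reading, 8 in BTBR and 1 in C57BL/6J. miR-1188 lost all 3 BTBR readings (27.9, 30.36 and 34.19), miR-1191 lost 28.95 and 27.89, and miR-1941-3p lost 29.25 and 28.83. miR-1274a lost 1 BTBR reading, and miR-2138 lost 1 in C57BL/6J (30.51). As a result miR-1188, miR-1191 and miR-1941-3p had too few BTBR values to be tested on the authors' values. The raw readings lost were not always the later ones. For miR-1188, 27.9 in BTBR replicate 1 was lost, and 29.37, 27.94 and 29.39 in C57BL/6J were kept. For miR-1274a, 27.54 in BTBR replicate 3 was lost, and 29.91 in C57BL/6J replicate 3 was kept.

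In the authors' deposited table, where 40 enters the means, 4 of the 21 late-numbered assays had an adjusted p under 0.05, against 48 of all 306 (15.7%). They were miR-1941-3p (0.00595), miR-1188 (0.0104), miR-1198 (0.0211) and miR-1839-3p (0.0392). The authors' deposited table gives BTBR means of 40 for miR-1941-3p and miR-1188, against 27.69 and 27.42 in C57BL/6J.

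With the late readings put back into the rebuilt quantiles, in which 40 enters as a value, 84 of 253 assays passed (33.2%), and 7 of 18 late-numbered ones. miR-1188 then had a log2 change of -8.48 (SE 1.68, limma adjusted p = 0.0327), miR-1191 -5.93 (SE 1.71, limma adjusted p = 0.0469) and miR-1941-3p -6.45 (SE 0.37, limma adjusted p = 0.00661). The raw readings give far smaller differences. On the global mean the log2 changes were -2.31 (SE 1.54) for miR-1188, -0.49 (SE 0.60) for miR-1191 and 0.13 (SE 1.03) for miR-1941-3p, and none passed. Without BTBR replicate 3 they were -0.76 (SE 1.06) for miR-1188 and -1.03 (SE 0.44) for miR-1191, and neither passed. The plot of late readings shows the raw and normalized values of these assays.

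**Figure D4:**
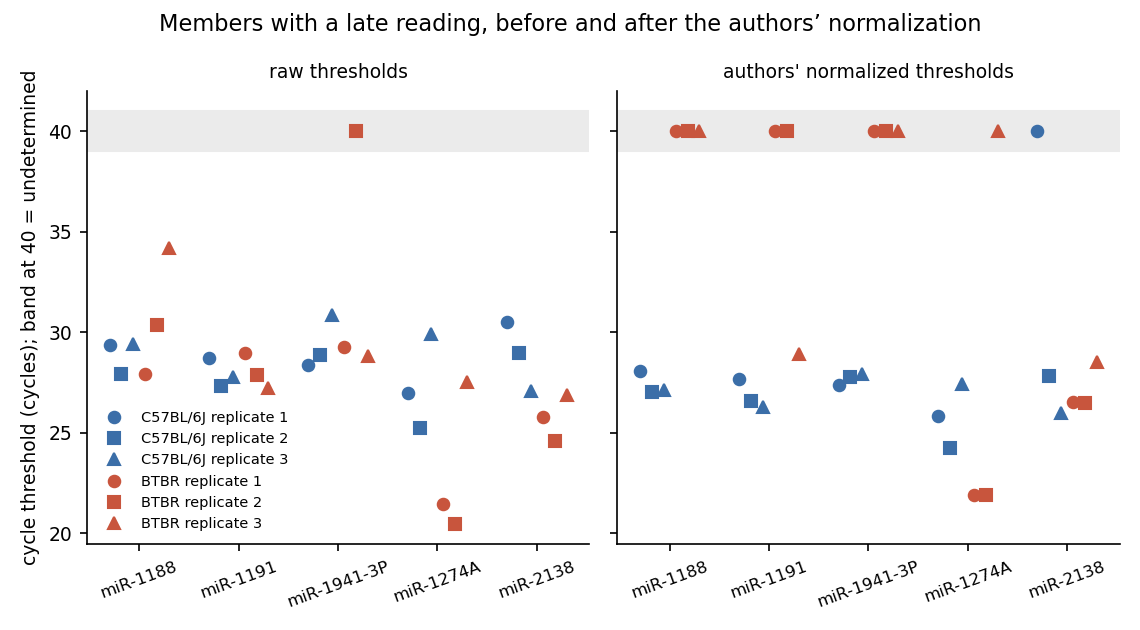
Raw (left) and authors' normalized (right) cycle thresholds of the 5 late-numbered assays with a raw reading that stands at 40 in the normalized table; each point is 1 mouse, and the grey band marks 40, undetermined. For miR-1188 and miR-1941-3p the 3 BTBR points lie at 40 on the right, while on the left miR-1188 was read in every mouse and miR-1941-3p in all but BTBR replicate 2.

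Leaving out 1 mouse at a time, each of the 5 late-numbered assays past the threshold passed in 2 of the fits. The limma adjusted p ranged from 0.0112 to 0.0709 for miR-1839-3p, 0.0258 to 0.0759 for miR-1839-5p, 0.0318 to 0.107 for miR-1198, 0.0255 to 0.0771 for miR-1944 and 0.0258 to 0.0685 for miR-1274a. The log2 changes kept their sign in these fits. Without C57BL/6J replicate 3, BTBR replicate 1 or BTBR replicate 2, 0 of the late-numbered assays passed. Over the panel these fits called 0 of 221, 0 of 212 and 8 of 213. Without C57BL/6J replicate 2, 1 late-numbered assay passed, and 3 of 212 over the panel. Without C57BL/6J replicate 1 or BTBR replicate 3, 4 and 5 late-numbered assays passed, beside 64 of 220 and 101 of 212 over the panel.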

How the data were processed

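Column-purified RNA (100 ng) from 6 mice was reverse transcribed, pre-amplified and run on the OpenArray rodent panel, per the labels' protocols. The members and the lists of fragments, mirtrons and tissue markers were chosen with earlier results of these data known, and the lists come from general knowledge. Raw cycle thresholds were used as deposited. The authors' normalized table has 306 assays with quantile-normalized thresholds, per the file headers. The sources used here do not give its further steps, which were rebuilt from the raw table. Readings under 10 were set to 40, and assays with too few detected values were dropped. The remaining 340 assays entered common quantiles with 40 as a value. Normalized values above 29.19 were set to 40, and assays then left with too few values were dropped, which left the 306. These steps gave the deposited values to within 3.33e-09 cycles, with 0 cells differing in being at 40. The authors' deposited comparison table gives, per its file headers, a p-value and an adjusted p-value, a test score, strain means, a fold ratio and the log2 of that ratio with its sign turned.

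Strain was fitted with lmFit and eBayes (limma 3.58.1, R 4.3.3) on the normalized thresholds times -1, with Benjamini-Hochberg adjustment over all assays tested. Adjusted p-values come from that tool. Values in every mouse are printed for assays past the threshold, the 10 earliest read in all 6 mice, fragment entries read in all 6 and hairpins with more than 1 assay; the others named were chosen after their values were seen. The fit was tried on simulated data with the 231 assays. There, 14.3% of changes of 1 cycle, 54% of 2 and 75% of 3 were recovered, and 4.43% of calls were false. Whether these shares hold under a panel-wide shift, such as the median log2 change of -1.13 on the authors' values, was not tested. A threshold carries no read depth, and the error comes from 3 mice per strain with each assay run once. Alternatives covered the centring, the treatment of 40 and of late readings, the filter, limma-trend, the replicate number as a block and each mouse left out.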

Additional observations from a re-analysis of the deposited data

How the results depend on the processing

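Of the 15 late-numbered assays tested on the authors' values, 5 passed, and 85 of 231 (36.8%) over the panel. On the global mean the late-numbered count was 0 with the same cells, with every detected reading and within pool, and over the panel 1, 0 and 0. Centring the authors' values on sample medians gave 0 and 2. With 40 kept as a value, 6 of 21 late-numbered assays passed, and 96 of 306 over the panel. With at least 3 values needed in each strain, 4 of 11 passed, and 82 of 189 over the panel. Centring on snoRNA135 and snoRNA202, chosen after seeing the data, gave 0 and 0, and the global mean without BTBR replicate 3, also chosen after seeing the data, gave 1 late-numbered call. Leaving out 1 mouse gave 0 to 5 late-numbered calls and 0 to 101 over the panel. The replicate block gave 2 (miR-1944 and miR-1839-3p) and 32 over the panel. Equal numbers were not treated as pairs, since the labels do not pair mice and deviations of same-numbered mice correlated at 0.08, 0.42 and -0.00. Limma-trend called 6 of 15 late-numbered assays and 88 of 231 over the panel. The late-numbered call it added was miR-1960 (limma adjusted p = 0.0432), which had 2 values in each strain.

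Over the alternatives of the 15 tested assays, 148 values kept direction and call, 47 kept direction and lost the call, 1 gained it and 42 turned sign. In the order same cells, every reading, within pool, sample medians and snoRNA centring, log2 changes turned to 0.72, 0.50, 0.65, 0.05 and 0.49 for miR-1306, to 2.21, 2.70, 2.84, 1.06 and 2.68 for miR-2138, to 0.47, 0.26, 0.40, 1.06 and 0.24 for miR-2146, to 0.89, 0.68, 0.82, 0.19 and 0.66 for miR-2182, and to 0.73, 0.51, 0.66, 0.14 and 0.49 for miR-2135. For miR-1944 they turned to 0.24, 0.03, 0.17 and 0.01, leaving out sample medians. The global mean without BTBR replicate 3 gave 3.13 for miR-2138, 0.39 for miR-2146, 1.14 for miR-2182 and 1.30 for miR-2135. With 40 kept as a value, miR-1274a stood at -2.10 and miR-2138 at 4.09, and with late readings put back miR-2138 stood at 0.77. The replicate block gave 1.89 for miR-1982.2. Leaving out 1 mouse gave -0.18 to 0.62 for miR-1937b, -0.61 to 0.39 for miR-2138, -0.33 to 0.21 for miR-2146 and -0.80 to 4.52 for miR-2134, negative for miR-2134 without C57BL/6J replicate 3. The cause of these changes was not tested. The strain difference in detected assays stayed positive, at 0.5 to 4.5 assays, under limits of 30 and 35 cycles, with readings under 10 counted and with each mouse left out.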
